A study of Sus scrofa with 9 samples.

Results

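The genes described here encode the machinery that displays peptides to T cells in the pig: the swine leukocyte antigen (SLA) class I and class II chains, the class I light chain beta-2-microglobulin (B2M) and the TAP transporters. Members were chosen by name from the annotation of a custom porcine Agilent array: every non-control probe named SLA- followed by a locus, B2M, TAP1 or TAP2, or described as SLA or as an MHC class I or II antigen. This gave 24 of the 49795 gene or sequence names on the array, read by 71 of 60889 probes. The authors' table of log2 values lists 60 of these probes, under 17 names, and the levels and tests below come from that table. No probe was named TAPBP, CIITA or SLA-2, and these genes were not analysed here.

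Class I molecules consist of a polymorphic heavy chain bound to B2M. They carry peptides that proteasomes cut in the cytosol and that the TAP1 and TAP2 transporter moves into the endoplasmic reticulum, and nearly every nucleated cell displays them to CD8 T cells. Class II molecules pair an alpha with a beta chain (DR or DQ), take up peptides from endosomes and are carried mainly by macrophages, dendritic cells and B cells. In the testis, macrophages of the interstitium, Leydig cells and vessels lie outside the blood-testis barrier, while meiotic and later germ cells lie inside it and carry little class I.

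Total RNA of testicular biopsies was hybridized to 9 one-colour (cyanine 3) arrays, 3 in each of 3 groups. Control boars were fertile, with normal semen and a normal karyotype. The oligospermic group had few sperm and a normal karyotype (2n=38,XY). The t(1;14) group came from a Landrace × Duroc boar that carried a balanced reciprocal translocation between chromosomes 1 and 14, with sperm that were few, poorly motile and malformed. The t(1;14) arrays hold separate samples of 1 boar, and the sources used here do not say which animal each control or oligospermic array holds, so the tests compare arrays, and karyotype cannot be told apart from the animal, its breed or its SLA alleles, which are not given. Biopsies mix germ and somatic cells, so fewer cells of a type and less RNA per cell cannot be told apart.

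Group and slide were balanced over 3 slides, and 37087 to 40632 probes per array were well above background. Of the 71 member probes, 51 were well above background on all 9 arrays and 6 on none, and none of the listed ones was saturated. Control arrays were less alike for these genes than the other arrays. The median SD within the control group was 0.61 (log2, n = 3 arrays) over the 60 listed probes, against 0.24 over all 38759 probes of the table. It was 0.22 against 0.17 in the oligospermic group and 0.14 against 0.13 in the t(1;14) group. Control 3 was the highest control array for B2M, SLA-DRA and most SLA-1 probes, and control 2 the lowest for B2M, SLA-DRA and SLA-DQB1.

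Each probe is an oligonucleotide of 60 bases. SLA loci are close copies of each other, and a probe can read more than its named locus. The sequences printed here belong to probes on which the results turn, and to pairs whose likeness shows how far a gene name separates one locus from another. All are written 5′ to 3′ from the array files, and capitals mark the bases that differ between the members of a pair over the stretch they share. The SLA-1 and SLA-3 probes share 59 bases, of which 4 differ. The LOC100622689 and SLA-5 probes share 34 bases, of which 6 differ. The pair for SLA-DQA1, the alpha chain of DQ, shares 59 bases with 5 that differ, and the pair for SLA-8 shares 58 with 1 that differs. The probes for NP276891 (a class I sequence with no gene symbol), B2M and SLA-DRB1 are shown alone, without capitals.
SLA-1, A_72_P440391: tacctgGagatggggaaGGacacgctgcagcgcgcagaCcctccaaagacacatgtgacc
SLA-3, A_72_P440386: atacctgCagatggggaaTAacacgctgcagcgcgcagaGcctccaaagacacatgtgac
LOC100622689, A_72_P625729: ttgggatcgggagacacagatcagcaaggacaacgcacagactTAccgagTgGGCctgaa
SLA-5, A_72_P414498: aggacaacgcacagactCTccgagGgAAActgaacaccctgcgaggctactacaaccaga
SLA-DQA1, A_72_P763148: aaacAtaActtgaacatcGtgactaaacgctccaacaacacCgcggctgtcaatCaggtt
SLA-DQA1, A_72_P743257: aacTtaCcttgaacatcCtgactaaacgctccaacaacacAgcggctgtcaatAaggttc
SLA-8, A_72_P541846: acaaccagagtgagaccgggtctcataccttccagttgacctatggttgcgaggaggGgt
SLA-8, A_72_P734731: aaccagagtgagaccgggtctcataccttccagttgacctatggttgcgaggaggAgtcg
NP276891, A_72_P414198: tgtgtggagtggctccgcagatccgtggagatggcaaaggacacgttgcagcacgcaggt
B2M, A_72_P709927: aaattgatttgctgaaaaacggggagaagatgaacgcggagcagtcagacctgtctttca
SLA-DRB1, A_72_P626735: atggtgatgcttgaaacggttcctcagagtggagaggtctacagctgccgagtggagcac

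The first question was whether these genes differed between the t(1;14) and control testis. A call needed both an adjusted p of at most 0.01 (limma, Benjamini-Hochberg over all 38759 probes) and a log2 fold change of at least 2 in size, the thresholds of the study's methods, while "rose" and "fell" stand for that adjusted p alone. Of the 60 listed probes, 3 were called, all higher in t(1;14) and all for class I heavy chains: NP276891, LOC100622689 and SLA-3. Of the probes of the whole table, 5.55% were called, 1.3% higher and 4.25% lower, so the overall share of members called was near the background. At the adjusted p alone 13 member probes rose (21.7%, against 16.3% of all probes) and 0 fell (against 16.1%). The t(1;14) arrays all read above the control arrays in 21 probes and below them in 1, against 36.2% and 26.4% of all probes. The median log2 fold change was 0.67 over the 60 probes and 0.143 over all probes.

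**Figure D1:**
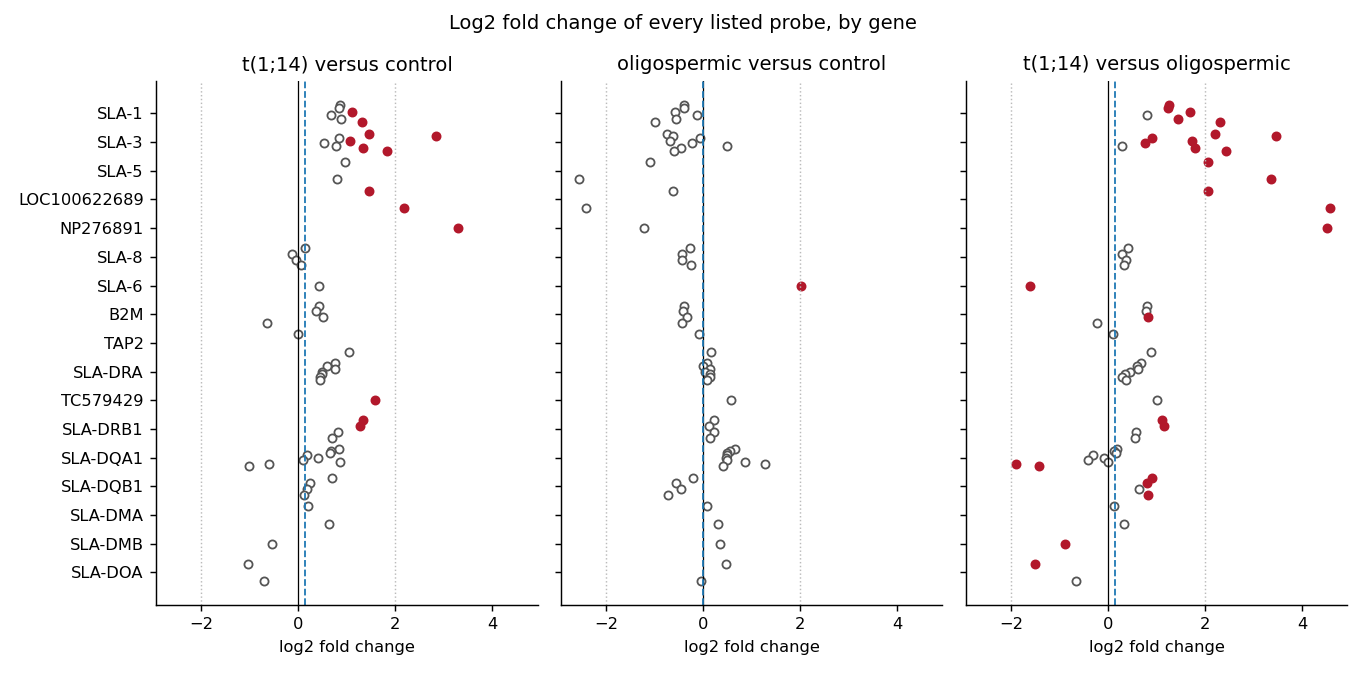
Log2 fold change (horizontal axis) of each of the 60 listed probes, grouped by gene, in the 3 comparisons. Filled points passed an adjusted p of at most 0.01, open points did not, the dashed line is the median of all 38759 probes and dotted lines mark 2 and -2. Classical and related class I heavy chains lie to the right of 0 in t(1;14) against control and mostly to the left in oligospermic against control, and SLA-8 lies near 0 in the first and at -0.43 to -0.25 in the second.

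The rise was uneven among the class I heavy chains. All 19 probes for SLA-1 and SLA-3 (classical genes, which present peptides to CD8 T cells), SLA-5, LOC100622689 and NP276891 had a log2 fold change above 0 in t(1;14), from 0.53 to 3.29 with a median of 1.07. Of these, 10 rose at the adjusted p (52.6%), and in 15 (78.9%) every t(1;14) array read above every control array. Many of the 19 overlap each other in sequence, some over nearly all their bases, so they are not separate measurements. None of the 4 probes for SLA-8, a non-classical gene, passed (limma, 0 also at an unadjusted p under 0.05), and their log2 fold changes were -0.13 to 0.14.

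NP276891 showed the largest difference of the 60 listed probes in this comparison. Its probe read 4.95, 4.93 and 5.16 (log2) on the control arrays, 3.39, 4.01 and 3.98 on the oligospermic arrays and 8.59, 7.94 and 8.37 on the t(1;14) arrays. The groups did not overlap, and the t(1;14) arrays stood apart from both others. It was 9.8-fold higher in t(1;14) than in control (log2 fold change 3.29, SE 0.19, adjusted p = 0.00011). Within the slides the difference was 2.99, 3.44 and 3.44, and with slide as a block the adjusted p was 0.0014. It stayed called whichever array was left out, but with normexp background correction its log2 fold change was 1.88, under the threshold.

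LOC100622689, a class I locus without a standard symbol, was covered by 2 probes. The probe printed above (A_72_P625729) read 7.27, 6.57 and 5.90 on the control arrays, 4.35, 4.13 and 4.05 on the oligospermic arrays and 8.83, 8.64 and 8.79 on the t(1;14) arrays. The 3 groups were fully apart, oligospermic lowest and t(1;14) highest. The rise from control to t(1;14) was 4.52-fold (log2 fold change 2.18, SE 0.33, adjusted p = 0.0025), and 1.37, 2.22 and 2.93 within the slides. With normexp it was 1.60. The brighter probe (A_72_P262732) read 11.09, 11.17 and 11.93 in control, 10.90, 10.76 and 10.70 in oligospermic and 12.87, 12.85 and 12.85 in t(1;14) arrays. It rose by a log2 fold change of 1.46 (SE 0.23, adjusted p = 0.0031), in the same order of groups.

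SLA-3 had 8 probes, all above 0 in t(1;14) against control, from 0.53 to 2.84, and 5 of them rose. The brightest (A_72_P649741) read 11.24, 11.81 and 11.63 on the control arrays, 11.00, 10.83 and 10.63 on the oligospermic arrays and 12.91, 13.11 and 13.03 on the t(1;14) arrays, again in separate ranges. Its log2 fold change was 1.46 (SE 0.17, adjusted p = 0.00094). The probe with the largest change (A_72_P682906) read 9.57, 11.58 and 9.99 in control, 9.89, 9.69 and 9.72 in oligospermic and 13.37, 12.94 and 13.35 in t(1;14). Here control 2 was far above the other controls, and control and oligospermic arrays overlapped. The difference was 7.16-fold (log2 fold change 2.84, SE 0.51, adjusted p = 0.0047).

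Probes of this gene did not move alike. A_72_P625308 shares 42 bases without a mismatch with A_72_P682906, and read 7.37, 9.18 and 8.33 in control, 8.90, 8.82 and 8.64 in oligospermic and 8.81, 9.31 and 9.13 in t(1;14). These groups overlapped, and its log2 fold change of 0.79 (SE 0.44) did not pass (adjusted p = 0.18). The dimmest SLA-3 probe (A_72_P517623) read 7.74, 7.74 and 7.28 in control, 6.80, 7.13 and 7.04 in oligospermic and 9.63, 9.11 and 9.53 in t(1;14), without overlap. It rose by 1.84 (SE 0.20, adjusted p = 0.0007).

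SLA-1 had 6 probes, with log2 fold changes of 0.69 to 1.31 in t(1;14) against control, and 2 of them rose. The brightest (CUST_238_PI427286967) read 13.50, 13.43 and 14.68 on the control arrays, 13.75, 13.41 and 13.25 on the oligospermic arrays and 14.74, 14.80 and 14.66 on the t(1;14) arrays. Control 3 lay within the t(1;14) range, and the log2 fold change of 0.86 (SE 0.34) did not pass (adjusted p = 0.073). Without control 3 it was 1.27 (adjusted p = 0.0013). The probe printed above (A_72_P440391) read 9.14, 9.48 and 10.07 in control, 8.54, 8.72 and 8.45 in oligospermic and 10.96, 10.71 and 10.98 in t(1;14), in separate ranges. It rose by 1.31 (SE 0.25, adjusted p = 0.0056), and its SLA-3 partner, which differs at 4 of the shared bases, by 1.34 (SE 0.19, adjusted p = 0.0018).

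SLA-5, another class I locus of the same region, had 2 probes. The brighter (A_72_P441848) read 9.85, 10.28 and 11.19 in control, 9.44, 9.32 and 9.29 in oligospermic and 11.40, 11.38 and 11.43 in t(1;14), all in separate ranges. The other (A_72_P414498) read 6.02, 7.70 and 5.27 in control, 3.97, 3.82 and 3.52 in oligospermic and 7.30, 6.84 and 7.24 in t(1;14), and only 1 oligospermic array was well above background. Neither passed in t(1;14) against control (log2 fold changes 0.96 and 0.80, adjusted p = 0.047 and 0.29).

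**Figure D2:**
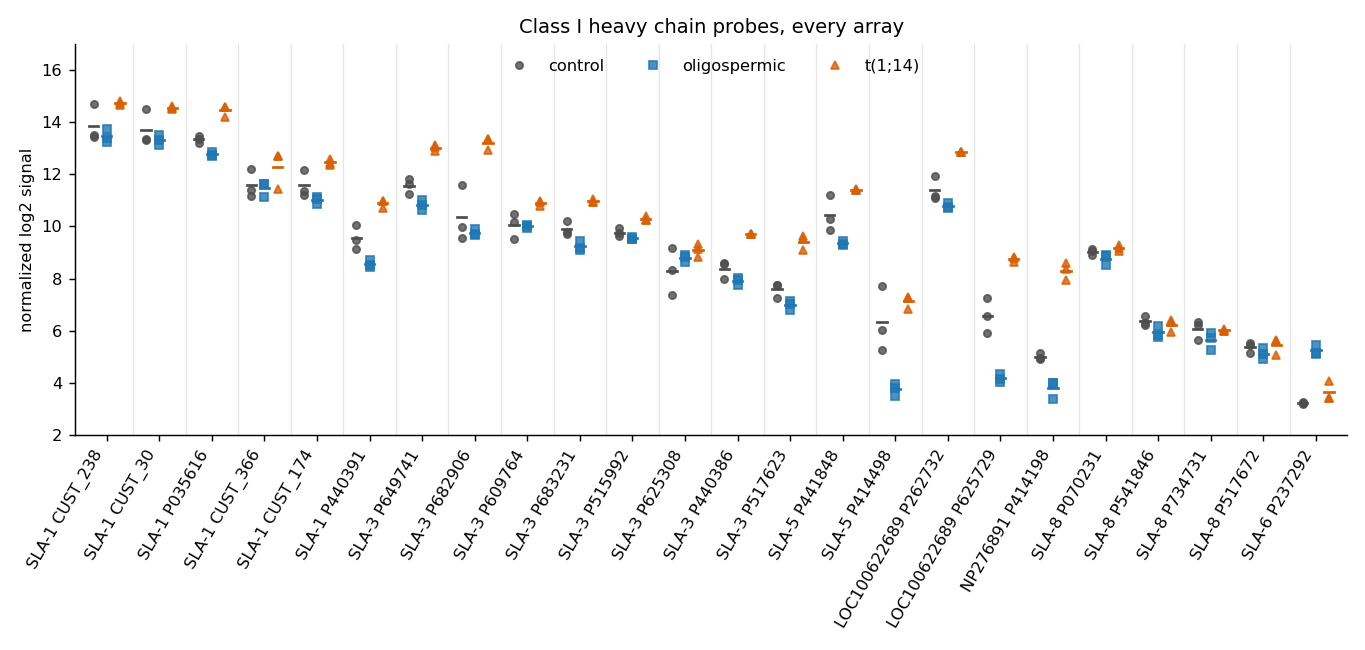
Normalized log2 signal (vertical axis) of the 24 listed class I heavy chain probes on all 9 arrays; points are arrays, short bars group means. The t(1;14) arrays are mostly the highest and the oligospermic arrays the lowest from SLA-1 to NP276891, the control and t(1;14) arrays overlap for the 4 SLA-8 probes, and the SLA-6 probe is highest on the oligospermic arrays.

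Single arrays moved these counts. The number of member probes that rose in t(1;14) at the adjusted p was 13 with all arrays, 8 without control 2, 21 without control 3, and 4, 6 and 4 without t(1;14) 1, 2 and 3. The number called fell from 3 to 1 without control 3 or without any 1 of the t(1;14) arrays, when NP276891 alone stayed. The LOC100622689 probe had a log2 fold change of 1.83 without control 3 and adjusted p-values of up to 0.014 without a t(1;14) array, and the SLA-3 probe had adjusted p-values of 0.015 to 0.023 in these fits. Without control 2, LOC100622689 just missed the adjusted p and an SLA-DQA1 probe was called lower. All 19 probes of the classical and related genes kept a log2 fold change above 0 under every alternative run.

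The oligospermic testis was compared with control to ask how a low sperm count without a translocation goes with the same genes. Only 0.0645% of all probes were called there. Among the members 1 of 60 was called, SLA-6, a non-classical class I gene. Its probe (A_72_P237292) read 3.22, 3.25 and 3.19 on the control arrays, 5.47, 5.16 and 5.12 on the oligospermic arrays and 3.44, 4.06 and 3.44 on the t(1;14) arrays. It was well above background on the 3 oligospermic arrays only, so that it met the filter on dim probes through the group in which it was high, and the call is not independent of that filter. The level was at least 3.17-fold higher in oligospermic than in control (adjusted p = 0.0057) and at least 3.04-fold higher than in t(1;14) (adjusted p = 0.00059). These limits set each dim array at the lowest signal that was well above background on it, or at its own signal if higher. With the replicate number as a block, which is also the slide in this comparison, the adjusted p against control was 0.052. Leaving out any 1 array also ended that call (adjusted p = 0.014 to 0.056), as did fitting without a filter (adjusted p = 0.021).

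None of the 19 classical and related class I probes passed in oligospermic against control (limma), with 10 at an unadjusted p under 0.05, where 9.82% of all probes were. With all 9 arrays in one model 1 of them, the LOC100622689 probe A_72_P625729, was called lower. Of the 19, 18 read lower there on average, with a median log2 fold change of -0.59. Every oligospermic array lay below every control array in 12 of the 19 (63.2%), against 7.76% of all probes, and every one above in 0, against 8.05%. Many of the 19 overlap in sequence, so these shares do not count separate measurements. The largest differences were -2.56 (SE 0.58, adjusted p = 0.22) for the SLA-5 probe A_72_P414498 and -2.40 (SE 0.34, adjusted p = 0.072) for the LOC100622689 probe A_72_P625729. The SLA-5 probe was well above background on only 1 oligospermic array, so its value and its rank are uncertain. This comparison and the one with t(1;14) share the control arrays and are not independent. In 11 of the 19 probes the 3 groups formed separate ranges in the order oligospermic, control, t(1;14), which held for 2.71% of all probes.

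Between t(1;14) and oligospermic the classical and related class I probes were furthest apart. Of the 19, 17 rose in t(1;14) at the adjusted p (89.5%, against 28.0% of all probes) and 9 were called (47.4%, against 1.87% of all probes called higher). The called probes were both of LOC100622689 and SLA-5, 3 of SLA-3, 1 of SLA-1 and that of NP276891. The LOC100622689 probe A_72_P625729 differed by 4.58 on the log2 scale (23.9-fold, SE 0.12, adjusted p = 1.2e-05), with 4.29, 4.66 and 4.78 within the slides. The brighter probe of this locus, A_72_P262732, differed by only 2.07 on that scale (4.2-fold, SE 0.09, adjusted p = 1.5e-05). NP276891 differed by 4.51 on that scale (SE 0.23, adjusted p = 1.9e-05), and only 1 oligospermic array was well above background for it. All t(1;14) arrays were above all oligospermic arrays in the same 17, against 41.1% of all probes. Here too, probes that overlap in sequence are not separate measurements. These 9 calls held with slide as a block and without any 1 array, 7 of them with scaling to the 75th percentile and 6 with normexp.

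B2M, the light chain shared by all class I molecules, had 4 probes by name, and none passed between t(1;14) and control (limma, 0 also at an unadjusted p under 0.05). The brightest (CUST_232_PI427286967) read 11.60, 10.80 and 12.90 on the control arrays, 11.76, 11.43 and 10.95 on the oligospermic arrays and 12.07, 12.28 and 12.22 on the t(1;14) arrays. The controls spanned the other groups: control 3 was above every t(1;14) array and control 2 below every oligospermic one. Its log2 fold change was 0.42 (SE 0.50, adjusted p = 0.5) in t(1;14) and -0.39 (SE 0.53, adjusted p = 0.89) in oligospermic against control. Against oligospermic, the probe printed above (A_72_P709927) rose by 0.83 in t(1;14) (SE 0.16, adjusted p = 0.0035), from 10.39, 10.24 and 9.86 to 10.87, 11.05 and 11.08. With slide as a block CUST_232_PI427286967 and A_72_P441589 rose as well (adjusted p = 0.0042 and 0.0069).

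The B2M probes fell into sets that did not move together. A further 9 probes were described as beta-2-microglobulin without carrying the symbol, and they are no members. Over all 13, CUST_218_PI427286967 is a member, and 2 probes overlap it in sequence (A_72_P733784 and A_72_P752403). These 3 had log2 fold changes of -0.75 to -0.64 in t(1;14) against control, and the other 10 of 0.375 to 1.80. Among the 10, the probes named for the transcript ENSSSCT00000005169 were at 1.12 to 1.80 and the rest at 0.375 to 0.645. Some of these 10 overlap each other as well, and CUST_40_PI427286967 and CUST_232_PI427286967 are the same 60 bases, so the 10 are not separate measurements. Against oligospermic, the 3 were at -0.33 to -0.22 and did not pass, while the 10 were at 0.77 to 2.03 and 7 of them rose. Only A_72_P725653 rose against control (log2 fold change 1.80, adjusted p = 0.0074), from 10.51, 9.90 and 11.39 to 12.22, 12.50 and 12.48. RefSeq lists 2 genes named B2M in the pig, both on chromosome 1, one of the chromosomes of the translocation. A link between that chromosome and the B2M levels was not tested. The other 17 of the 18 member names found in RefSeq (Sscrofa11.1) lie on chromosome 7.

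**Figure D3:**
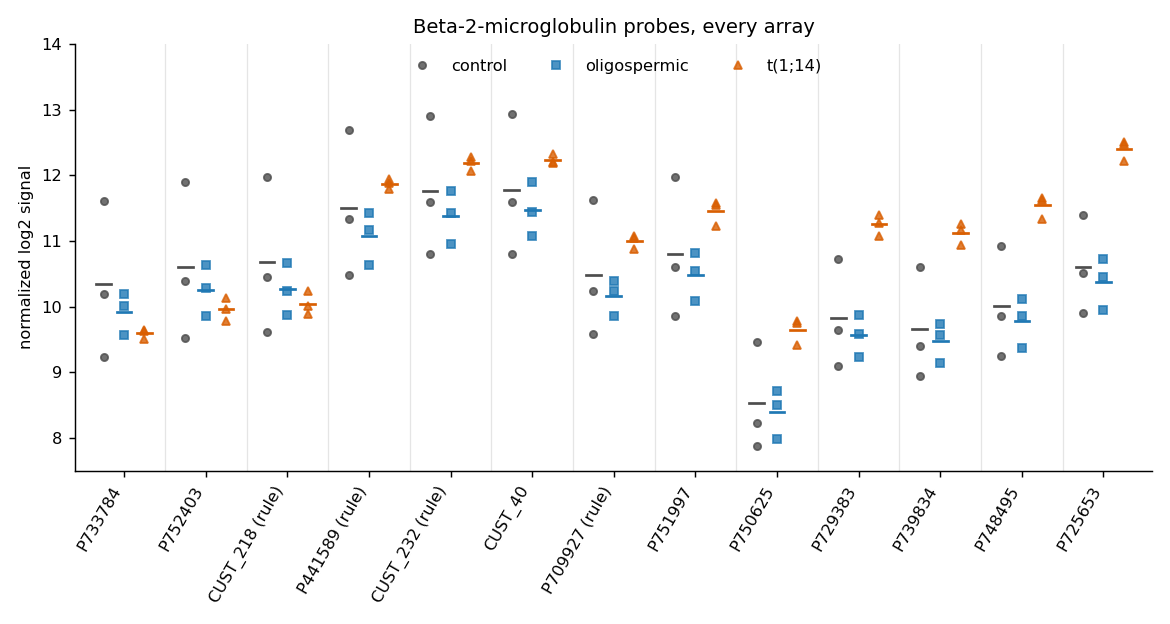
Normalized log2 signal (vertical axis) of 13 beta-2-microglobulin probes on all 9 arrays, ordered by the difference between t(1;14) and control; "rule" marks the 4 member probes, points are arrays and short bars group means. CUST_218 and the 2 probes that overlap it, at the left, read lower on average in t(1;14) than in control, the other 10 higher, and control 3 is the top control array throughout.

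The transporters that load class I molecules were poorly covered. TAP2 had 2 listed probes, and the brighter (A_72_P013781) read 8.32, 8.93 and 9.10 in control, 8.10, 8.88 and 9.11 in oligospermic and 9.26, 8.05 and 9.07 in t(1;14). The groups overlapped completely, with a log2 fold change of 0.01 (SE 0.37, adjusted p = 0.99) in t(1;14) against control. The dim TAP2 probe (A_72_P275849) was well above background on 1 control, 1 oligospermic and 3 t(1;14) arrays, and its log2 fold change of 1.06 (SE 0.40) did not pass (adjusted p = 0.067). Neither TAP1 probe is in the authors' table. In the scanner signal, normalized here over the 9 arrays, one of them (A_72_P223837) read 4.06, 2.20 and 4.01 in control, 4.47, 3.50 and 3.15 in oligospermic and 3.84, 4.82 and 3.92 in t(1;14), with overlap of all groups, and the other was above background on no array.

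None of the 30 listed class II probes was called in any comparison with all arrays. At the adjusted p alone 3 rose in t(1;14) against control (10.0%, against 16.3% of all probes) and 0 fell (against 16.1%). At an unadjusted p under 0.05 (limma) there were 8. Every t(1;14) array read above every control array in 13.3% of them, against 36.2% of all probes, so the class II share was below the background. With slide as a block 2 rose and 1 fell in this comparison. Against oligospermic, 5 rose and 4 fell, where 28.0% and 22.7% of all probes did and 4.77% were called lower. With slide as a block 11 rose and 4 fell against oligospermic, the 6 further ones being 2 SLA-DRA, 2 SLA-DRB1 and 1 SLA-DQB1 probe and TC579429. The shares of all probes under the slide block are not given, so the blocked counts have no background beside them. In oligospermic against control 0 of the 30 passed (limma, 2 at an unadjusted p under 0.05), with a median log2 fold change of 0.19.

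SLA-DRA, the nearly invariant alpha chain of DR, was measured by 7 probes. The brightest (A_72_P176171) read 8.91, 8.34 and 10.08 in control, 9.53, 9.15 and 8.89 in oligospermic and 9.73, 9.99 and 9.92 in t(1;14). Control 3 was the highest of the 9 arrays and control 2 the lowest, and the log2 fold change in t(1;14) against control was 0.77 (SE 0.42, adjusted p = 0.17). The 7 probes ranged from 0.45 to 0.77, and none passed. Without control 3 the brightest probe rose by 1.26 (adjusted p = 0.0069).

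SLA-DRB1, the beta chain of DR, rose in t(1;14) in 2 of its 4 probes. A_72_P545751 read 7.01, 7.23 and 7.82 in control, 7.68, 7.65 and 7.40 in oligospermic and 8.58, 8.74 and 8.76 in t(1;14), and the t(1;14) arrays were above all others. Its log2 fold change was 1.34 (SE 0.22, adjusted p = 0.0033) against control and 1.12 (SE 0.12, adjusted p = 0.00025) against oligospermic. A_72_P110316 rose by 1.27 (adjusted p = 0.0078), which did not pass with slide as a block (adjusted p = 0.019). The printed probe and the fourth were at 0.70 and 0.81 and did not pass. Neither rising probe passed without control 2 or any 1 of the t(1;14) arrays (adjusted p = 0.013 to 0.034), and A_72_P110316 did not pass without control 1 (adjusted p = 0.015).

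**Figure D4:**
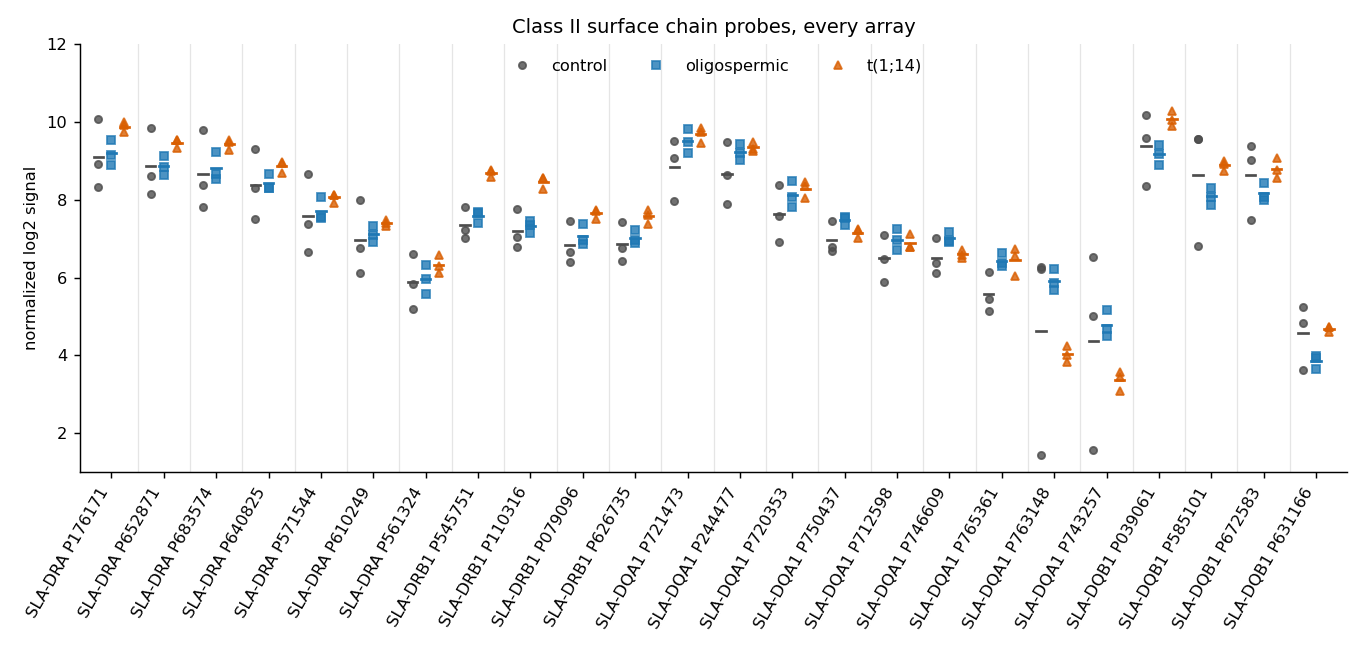
Normalized log2 signal (vertical axis) of the 24 probes for SLA-DRA, SLA-DRB1, SLA-DQA1 and SLA-DQB1 on all 9 arrays; points are arrays, short bars group means. The t(1;14) arrays lie above all others for the first 3 of the 4 SLA-DRB1 probes, and control 2 lies far below every other array for the SLA-DQA1 probes A_72_P763148 and A_72_P743257.

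TC579429, a transcript described as a class II antigen, was near background. It read 3.58, 3.42 and 3.42 in control, 4.41, 3.56 and 4.19 in oligospermic and 4.76, 5.40 and 5.04 in t(1;14), and it was well above background on 1, 2 and 3 arrays of these groups. The t(1;14) arrays were above the rest, with a log2 fold change of 1.59 (SE 0.18, adjusted p = 0.00081) against control.

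The DQ chains differed among probes and among control arrays. Of 9 SLA-DQA1 probes, 7 had log2 fold changes of 0.10 to 0.87 in t(1;14) against control, none of which passed. The printed pair went the other way. A_72_P763148 read 6.26, 1.43 and 6.22 in control, 6.22, 5.86 and 5.67 in oligospermic and 3.83, 4.25 and 4.02 in t(1;14). A_72_P743257 read 5.02, 1.58 and 6.53 in control, 5.18, 4.68 and 4.49 in oligospermic and 3.57, 3.09 and 3.45 in t(1;14). Control 2 was not well above background on either, although it was well above background on the other 7 SLA-DQA1 probes. The log2 fold change of A_72_P763148 against control was -0.61 (SE 1.28, adjusted p = 0.71), and -2.21 without control 2 (adjusted p = 0.00063). Against oligospermic it fell by 1.88 (SE 0.18, adjusted p = 0.00016). No t(1;14) array read A_72_P743257 well above background, and its level there was at least 2.16-fold lower than in oligospermic (adjusted p = 0.0013). Against control it did not pass (adjusted p = 0.5), and no fold is given, since control 1 and control 3 read above every t(1;14) array and control 2, also not well above background, below them all.

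SLA-DQB1, the beta chain of DQ, passed in none of its 4 probes between t(1;14) and control (log2 fold changes 0.12 to 0.70). The brightest (A_72_P039061) read 10.18, 8.35 and 9.59 in control, 9.41, 9.18 and 8.89 in oligospermic and 9.89, 10.28 and 10.05 in t(1;14). Control 2 was the lowest of the 9 arrays. Against oligospermic, 3 of the 4 rose in t(1;14), A_72_P039061 by 0.91 (SE 0.17, adjusted p = 0.0031).

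None of the chains that edit class II peptides rose. SLA-DMA and SLA-DMB form DM, which exchanges peptides on class II molecules, and SLA-DOA and SLA-DOB form DO, which restrains DM. None of their 5 listed probes passed between t(1;14) and control (limma, 2 at an unadjusted p under 0.05). The brightest SLA-DMA probe (A_72_P025111) had log2 fold changes of 0.20 against control and 0.12 against oligospermic, neither of which passed. SLA-DMB (A_72_P375073) read 7.88, 7.44 and 8.12 in control, 8.21, 8.10 and 8.20 in oligospermic and 7.06, 7.56 and 7.23 in t(1;14), and fell by 0.89 against oligospermic (SE 0.14, adjusted p = 0.0017). SLA-DOA (A_72_P513855) read 6.005, 6.627 and 6.613 in control, 6.380, 6.950 and 7.361 in oligospermic and 5.691, 4.999 and 5.471 in t(1;14). Its t(1;14) arrays lay below both other groups, with a log2 fold change of -1.03 against control (SE 0.25, adjusted p = 0.015, and 0.004 with slide as a block) and of -1.51 against oligospermic (SE 0.29, adjusted p = 0.0035). The second SLA-DOA probe (A_72_P375623), which shares 46 bases with it without a mismatch, read 4.71, 6.70 and 5.96 in control, 4.41, 6.25 and 6.60 in oligospermic and 5.29, 4.82 and 5.16 in t(1;14). Its groups overlapped, and it passed neither against control (-0.70, adjusted p = 0.26) nor against oligospermic (-0.66, adjusted p = 0.32). Neither SLA-DOB probe is in the authors' table.

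The other members outside that table were dim. Of the 11 unlisted probes, 6 were well above background on no array: those of SLA-7, TC607699, TC627156 and TC629318 and 1 each of SLA-6 and TAP1. LOC100515902 and the second SLA-DMB probe were above background on 4 and 2 arrays, and the SLA-DOB probes on 5 and 1.

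Genes that serve antigen presentation without being members were read from 6 lists, by the brightest probe of each gene. Of 38 measured genes, 11 rose and 4 fell in t(1;14) against control (16.3% and 16.1% of all probes did), 0 passed in oligospermic against control (limma, 1 at an unadjusted p under 0.05), and 17 rose and 4 fell in t(1;14) against oligospermic (28.0% and 22.7% of all probes). In the class II pathway 4 of 9 rose and none fell: LGMN (2.47, legumain), CTSD (1.80), CTSB (1.46) and CTSL (0.82), lysosomal proteases. CD74, the invariant chain that guards the class II groove, was at 0.23 and did not pass (adjusted p = 0.34), and CTSS, the protease that trims it, was at 1.01 (adjusted p = 0.012).

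Among 7 genes that supply class I peptides, PSME2 (1.40), a subunit of the proteasome activator PA28, and LNPEP (0.86), a peptidase, rose and PSME3 (-1.63), which forms the nuclear PA28 ring, fell. The immunoproteasome subunits PSMB8, PSMB9 and PSMB10 had log2 fold changes of 0.29, 0.01 and 0.49 and did not pass. Of 3 loading chaperones CANX (1.82) rose, and CALR (0.08) and HSPA5 (-0.08) did not pass.

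Among the regulators of MHC transcription NFYB (0.63), a subunit of the NF-Y factor, rose, and CREB1 (-1.65) and SPI1 (-0.999) fell. A second SPI1 probe went the other way, at 0.65. NLRC5, the class I transactivator, was at -0.17 (adjusted p = 0.45). Of the interferon gamma pathway JAK2 (0.92) rose among 5 measured genes, and IFNG itself was well above background on no array. Among 5 MHC-like genes FCGRT (1.42), the neonatal Fc receptor heavy chain, which also binds B2M, rose and CD1D (-1.48), which presents lipids, fell. Genes of these lists with smaller changes were named after their values were seen.

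Marker genes of the cell types in a biopsy were read in the same comparison. Of 55 measured, 11 rose and 10 fell in t(1;14) against control, where 16.3% and 16.1% of all probes did. Of 6 measured Leydig cell genes 5 rose in t(1;14), among them STAR (3.72), LHCGR (2.72), CYP11A1 (2.57) and CYP17A1 (2.31). The mean log2 level of the list was 10.97 to 11.24 over control arrays, 11.05 to 11.48 over oligospermic and 12.99 to 13.21 over t(1;14) arrays. Of 6 measured spermatid genes 5 fell, among them ACRV1 (-2.39), AKAP4 (-2.27) and SPATA18 (-1.93), and the list's mean was 14.08 to 14.25, 14.15 to 14.19 and 12.57 to 12.66. Of 7 endothelial genes 2 rose (PECAM1 1.41 and VWF 0.92), with list means of 5.51 to 6.78, 6.27 to 6.57 and 6.90 to 7.37. Sertoli, peritubular, spermatogonium and spermatocyte lists had 1, 0, 1 and 1 genes higher and 1, 1, 0 and 1 lower, of 7, 3, 2 and 5 measured.

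Leukocyte markers, read for cells that carry class II, gave no common direction in t(1;14) against control. Of 10 measured macrophage and dendritic cell genes CD14 rose by 1.30 and C1QC fell by 1.95 in t(1;14) against control, and 8 did not pass. The list's mean was 6.68 to 7.25 in control, 6.70 to 6.77 in oligospermic and 6.96 to 7.09 in t(1;14). Against oligospermic 5 of the 10 rose (28.0% of all probes did), CD14 by 1.35 and CD163 by 1.05 among them, and 1 fell (against 22.7%). The median log2 fold change there was 0.43 over the list and 0.139 over all probes. Of 3 T cell, 2 B cell, 2 NK cell and 2 pan-leukocyte genes measured, GZMB alone passed against control, at -1.66 (limma, 3 of the 9 at an unadjusted p under 0.05). Of the T cell genes on the array but not in the authors' table, CD3E was well above background on 5 arrays and CD3D, CD3G, CD4, CD8A, CD8B and CD2 on none, nor were MS4A1 and CD79A of B cells, and PTPRC, CD68 and CSF1R had no probe of that name. The part of any cell type in the differences of the MHC genes was not tested.

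**Figure D5:**
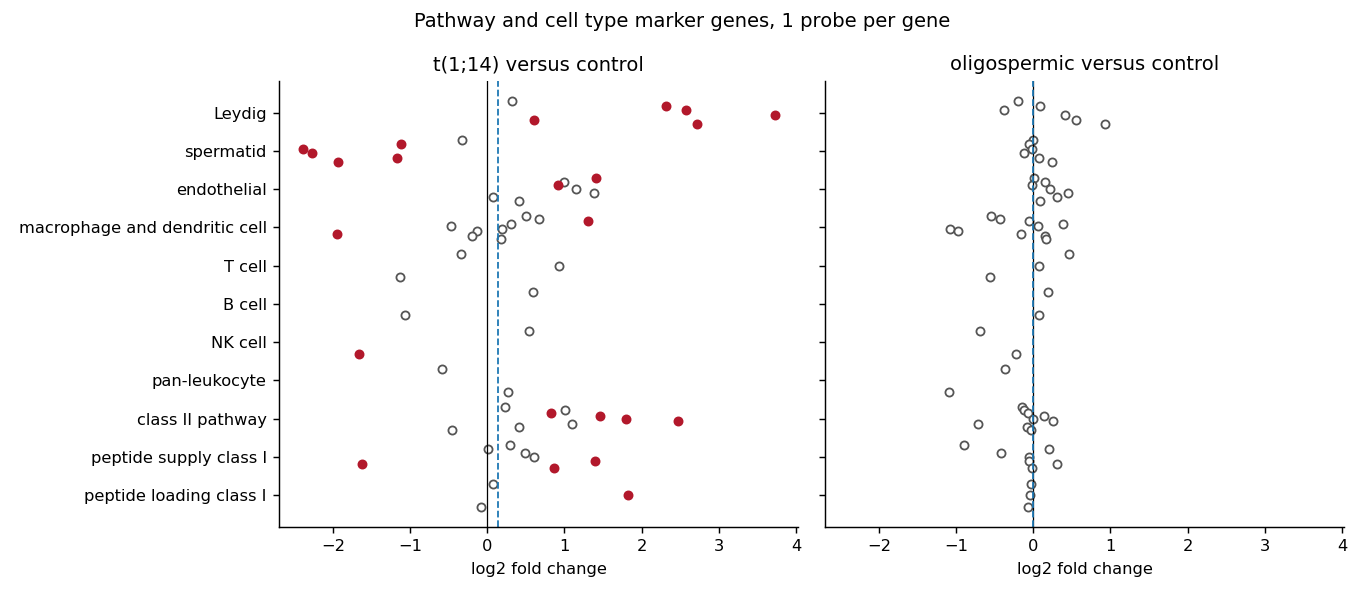
Log2 fold change (horizontal axis) of the measured genes of 11 lists, 1 probe a gene, in t(1;14) and in oligospermic against control; filled points passed an adjusted p of at most 0.01 and the dashed line is the median of all probes. Leydig genes lie to the right and spermatid genes to the left in t(1;14), leukocyte lists lie on both sides of 0, and no gene passed in oligospermic.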

How the data were processed

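The 9 arrays carried cyanine 3 labelled RNA, and the scanner images were read with Agilent Feature Extraction. The authors deposited the intensity of each spot after background subtraction, and a table of log2 values for 38759 of 60889 probes. At each rank the columns of that table differ by at most 0.00163, so it is quantile normalized over the 9 arrays, and within each array it correlates at 0.99982 or more with the log2 of the deposited intensity. Per the study's methods, spots of good quality on at least 2 of 3 replicates were kept. The labels name limma with no version.

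Here lmFit and eBayes of limma 3.58.1 (R 4.3.3) were run over all 38759 probes on the 6 arrays of each comparison, with Benjamini-Hochberg adjustment. A fold change is given on the scale of the log2 values. Scanner files gave the probe names, sequences, background flags and alternatives: other scalings, normexp correction (offset 50), no or a stricter filter, 9 arrays in one model, slide or replicate blocks, an intensity trend, other thresholds, a single probe per gene, and each array left out. The fit was tested on simulated data with known changes.

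In oligospermic against control the replicate numbers are also the slides, and arrays with the same number deviated together (r = 0.495, 0.12 and 0.109), so they pair the arrays there. The number of arrays limits the precision. The members and lists were chosen with earlier results of these data known. A gene stands by its probe of highest mean, and the other probes of a member gene by range. Values on every array are given for genes with a called probe and for B2M, TAP1, TAP2, SLA-DRA and the brightest classical class I gene, and for further class II genes chosen after their values were seen. List genes were named if called in any comparison or among the 3 largest changes. Names were matched to RefSeq (Sscrofa11.1) for chromosomes only, and 18 of 24 matched. The values of 1 list gene are not reported here.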

Additional observations from a re-analysis of the deposited data

How the results depend on the processing

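Depth limits SLA-6, NP276891, the dim LOC100622689, SLA-5, SLA-DQA1, SLA-DQB1 and TAP2 probes and TC579429, which were near background in part of the arrays. Of 1709 values of named probes under alternatives, none that passed the test in either fit changed sign, 77 no longer passed the adjusted p and 26 newly passed it. Counts of member probes called in t(1;14) against control (3) were 1 with normexp and with a single probe per gene, 13 with a log2 threshold of 1 and 13 with the adjusted p alone, and ranged from 1 to 3 without single arrays. In oligospermic against control the call of SLA-6 gave 0 with scanner quantile normalization over 9 or 6 arrays, scaling to the 75th percentile, normexp or no filter. It also gave 0 with slide as a block, the replicate block, the intensity trend and without any single array. The filter on all 6 arrays gave 0 too, but it removes this probe, dim in control, before any test. With 9 arrays in one model the count was 2, SLA-6 higher and LOC100622689 lower. In t(1;14) against oligospermic the count (9) was 21 with a log2 threshold of 1, 28 with the adjusted p alone and 4 with a single probe per gene. Other antigen presentation genes gave 10 and 15 (for 1) in t(1;14) against control with the log2 threshold of 1 and the adjusted p alone, and 14 and 21 (for 1) against oligospermic, where scaling to the 75th percentile gave 2 and leaving out single arrays 1 to 3 (3 without oligospermic 1). Cell type markers gave 17 and 21 (for 6) and 21 and 32 (for 6) in these comparisons, and 1 (for 0) in oligospermic against control with 9 arrays in one model. The causes of these moves were not tested, apart from the wider thresholds themselves. Replicate numbers did not pair the arrays in t(1;14) against control (r = -0.287, -0.196 and 0.153) or against oligospermic (r = -0.426, -0.366 and 0.0965), whereas arrays of one slide deviated together (r = 0.36, 0.112 and 0.13, and 0.502, 0.322 and 0.333). With slide as a block 3 and 9 member probes were called, and 12 in place of 13 and 31 in place of 23 rose. With the replicate block, 2 and 9 member probes were called, and 7 in place of 13 rose at the adjusted p against control. The shares of all probes that rose under either block are not given, so these counts cannot be set against a background. The median of all probes in t(1;14) against control was 0.143, and 0.064 with normexp and 0.028 without a filter.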
